A study of Mus musculus with 2 samples.

Results

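The 10 genes described here belong to the osteoclast and cell fusion programme, and they were looked up by symbol among the 32285 genes of the count tables, where all 10 were present. They comprise the effectors Acp5, Ctsk, Ocstamp, Dcstamp and Atp6v0d2, the receptor RANK (Tnfrsf11a), its ligand RANKL (Tnfsf11), the decoy receptor osteoprotegerin (Tnfrsf11b), the calcitonin receptor (Calcr) and the transcription factor Nfatc1. The data came from droplet-based single-cell RNA sequencing of the temporomandibular joint (TMJ), the jaw joint, of C57BL/6 mice aged 8-10 weeks. All animals had received Complete Freund's Adjuvant (CFA), which causes joint inflammation, and no uninjected joint was in the series. There were 2 libraries, 1 from WT joints and 1 from Prox1 mutant joints, both of which the study describes as coming from female mice, the mutants with 1 disrupted Prox1 allele. Prox1 is the transcription factor that sets lymphatic endothelial identity, so the comparison asked what changed in an inflamed joint with deficient lymphatics. With 1 library per genotype, a difference between the libraries could not be told apart from a difference between preparations, and no p-value is given. The intervals printed cover counting error only.

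Osteoclasts are multinucleated cells that resorb bone. They form from macrophage lineage precursors when RANKL, displayed by stromal cells, osteocytes and activated lymphocytes, binds RANK, and osteoprotegerin intercepts RANKL. RANK signalling induces Nfatc1, and Nfatc1 switches on the fusion proteins Dcstamp and Ocstamp, the proton pump subunit Atp6v0d2, the tartrate-resistant acid phosphatase Acp5 and the collagen-cleaving protease Ctsk. Macrophages outside bone can carry parts of this programme, and Dcstamp also serves fusion into foreign body giant cells.

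Acp5 and Ctsk are the classical enzyme markers of osteoclasts, and their upstream sequences are shown because the pair led in different lineages of this joint. Acp5 (ENSMUSG00000001348) lies at chr9:22126727-22135711 on the minus strand and Ctsk (ENSMUSG00000028111) at chr3:95499256-95509362 on the plus strand of GRCm38, in the GENCODE annotation. The RefSeq promoter table for GRCm38.p6 held starts for 5 of the 10 genes. The sequences are the 250 bases before the outermost of 3 listed Acp5 starts (chr9:22135747-22135996, minus strand) and before the Ctsk start (chr3:95498960-95499209, plus strand), both from upstream of the annotated exons and 5′ to 3′ along the gene. Capitals mark the letters GGAAAA (the core bound by NFAT factors) and GAGGAA (a core bound by PU.1), each searched on both strands; they share the letters GGAA but did not overlap here.
Acp5: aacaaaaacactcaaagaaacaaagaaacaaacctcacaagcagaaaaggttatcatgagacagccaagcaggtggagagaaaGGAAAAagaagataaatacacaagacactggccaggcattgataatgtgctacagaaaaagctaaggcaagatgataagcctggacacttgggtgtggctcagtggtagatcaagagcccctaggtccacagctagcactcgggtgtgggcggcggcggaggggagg
Ctsk: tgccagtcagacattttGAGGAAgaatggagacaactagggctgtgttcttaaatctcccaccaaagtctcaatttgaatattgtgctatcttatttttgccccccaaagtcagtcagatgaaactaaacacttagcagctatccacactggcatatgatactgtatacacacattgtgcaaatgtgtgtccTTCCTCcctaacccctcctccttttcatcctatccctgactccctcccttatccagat
The Acp5 window held GGAAAA 167 bases before the start and no GAGGAA. The windows of the other listed Acp5 starts (chr9:22131866-22132115 and chr9:22130599-22130848) held neither, and which start was used was not tested. The Ctsk window held GAGGAA or its reverse complement at 233 and 58 bases before the start and no GGAAAA. Of 32851 listed promoters, 20.4% held GGAAAA and 23.3% held GAGGAA in the same window, so these letters are common and the matches describe the sequence only.

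The WT library held 5709 barcodes and 53517206 UMIs (unique molecular identifiers, each counting 1 captured RNA molecule), and the mutant library 7846 barcodes and 62446987 UMIs. After filtering, 4352 WT and 5757 mutant cells remained, with median depths of 6997 and 4848 UMIs, and 10 barcodes occurred in both libraries, 4 of them among kept cells. The cells formed 43 clusters, and 18 cell types could be named from markers. Unnamed clusters took 7.95% of WT and 32.2% of mutant cells. Prox1 itself stood over all kept cells at 11.6 counts per 1000000 UMIs (CPM; 95% interval 10.7 to 12.6) in WT against 5.80 CPM (5.18 to 6.47) in the mutant. In endothelial cells it stood at 40.6 CPM (36.0 to 45.5) in WT against 25.6 CPM (21.2 to 30.7) in the mutant, detected in 36 of 1046 and 21 of 523 cells. Endothelial cells held 14.8% of WT and 8.54% of mutant UMIs, so the level over all cells also reflects their share.

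Some of the members fell into 4 patterns by cell type, and Tnfrsf11a, Tnfsf11, Tnfrsf11b and Ocstamp are described separately below. Acp5, Dcstamp and Atp6v0d2 were concentrated in macrophages, Ctsk in mesenchymal cells, Calcr in muscle satellite cells, and Nfatc1 was spread over most types. Macrophages, named from C1qa, C1qb, C1qc and related genes, held 83.0% of WT Acp5 UMIs, 95.7% of Dcstamp UMIs and 90.1% of Atp6v0d2 UMIs, while they held 26.4% of all UMIs. In the mutant library these shares were 65.3%, 85.1% and 84.7%, with 25.5% of all UMIs in macrophages. Endothelial cells, which should lack the effectors, gave the background: Acp5 stood there at 2.94 and 1.72 CPM, Dcstamp at 2.24 and 1.72 CPM, and Atp6v0d2 at 2.66 and 0 CPM in WT and mutant.

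**Figure D1:**
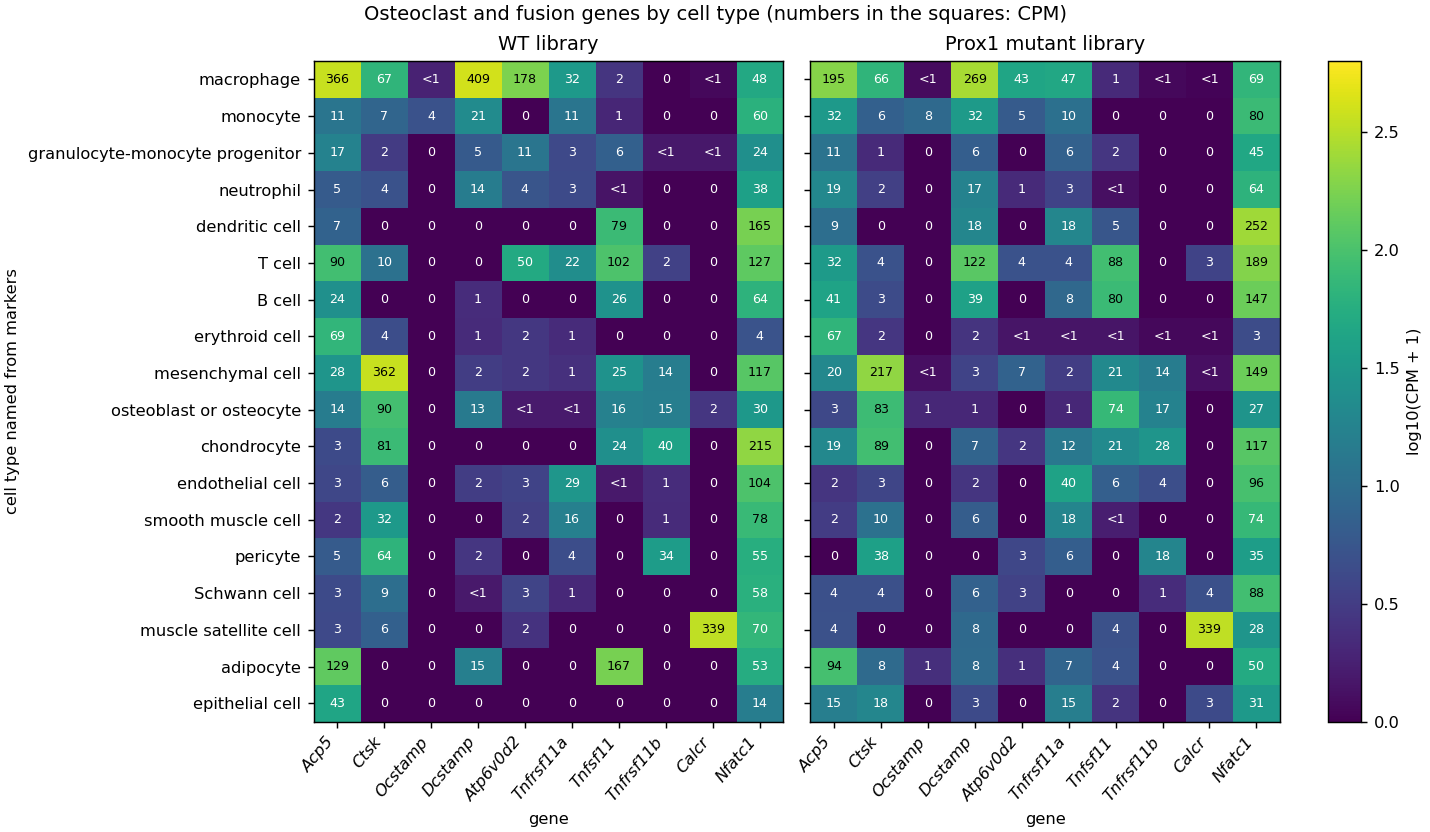
Level of each of the 10 genes (columns) in each of the 18 named cell types (rows) of the WT library (left) and the Prox1 mutant library (right); colour is log10(CPM + 1) and the number in each square is CPM. Bright squares include Acp5 and Dcstamp in macrophages, Ctsk in mesenchymal cells (362 and 217 CPM), Calcr in muscle satellite cells (339 CPM in both libraries) and Nfatc1 in dendritic cells (165 and 252 CPM).

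Macrophages numbered 578 in WT and 772 in the mutant library and were divided again into 5 subclusters, with the 10 genes left out of the clustering. The first, an M1-like subset raised for Mmp12, Spp1, Arg1 and Inhba, made up 44.6% (95% exact interval 40.5 to 48.8) of WT and 24.7% (21.7 to 27.9) of mutant macrophages. Arg1 is also widely used as a marker of alternatively activated macrophages, and Nos2, the remaining M1-like marker, was not raised there. The second was a monocyte-like subset (Ly6c2, Ccr2, Plac8) and the third an M2-like subset (Mrc1, Folr2, Lyve1, Ccl8). Another, led over both libraries by the neutrophil granule genes Ngp and Camp, and the last, led by haemoglobin genes, stayed unnamed. In the Ngp-led subcluster 10 neutrophil markers summed to 554 CPM in WT against 5381 CPM in the mutant. The WT sum lay below that of WT M1-like cells (1079 CPM), so Ngp-led is a label for the pooled cells and describes the mutant ones. Both unnamed subclusters were shallow and took 10.2% and 4.33% of WT and 18.0% and 19.9% of mutant macrophages, so each macrophage value was also read within the M1-like subset, where the median depths were close, at 30828 WT and 28101 mutant UMIs.

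Atp6v0d2 (ENSMUSG00000028238, chr4:19876841-19922605, minus strand), the d2 subunit of the vacuolar proton pump that acidifies the resorption pit and is needed for efficient fusion, showed the widest gap between libraries among the 6 members tested in macrophages. It stood at 178 CPM (171 to 186; 2276 UMIs) in WT against 43.5 CPM (40.1 to 47.1; 603 UMIs) in mutant macrophages. The WT level was 4.09 times the mutant level (3.74 to 4.49), a log2 ratio of mutant over WT of -2.03. Of 8346 genes with at least 200 UMIs in macrophages, 6 had a lower ratio. The gap was present in every subcluster. It was 239 against 71.8 CPM in M1-like cells (log2 -1.73), 29.3 against 6.73 CPM in monocyte-like cells (-2.12), 59.7 against 27.4 CPM in M2-like cells (-1.12), and 144 against 27.8 and 163 against 47.1 CPM in the Ngp-led and haemoglobin-led subclusters. In M1-like cells the median droplet held 3 Atp6v0d2 UMIs in WT and 0 in the mutant, and 23.0% (18.0 to 28.6) against 6.32% (3.31 to 10.8) of them held any after each was thinned to 2000 UMIs. The most loaded droplets held 3.22% and 7.22% of the UMIs, so no single droplet set the difference.

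Acp5 was lower in mutant macrophages as well, by a smaller amount. It stood at 366 CPM (356 to 377) in WT against 195 CPM (188 to 203) in mutant macrophages, a log2 ratio of -0.91 (-0.98 to -0.84). Within subclusters the WT and mutant levels were 451 and 298 CPM in M1-like cells (-0.60), 180 and 114 CPM in monocyte-like cells (-0.66), and 175 and 92.1 CPM in M2-like cells (-0.92). The 2 unnamed subclusters gave 204 against 115 CPM and 538 against 120 CPM. The median M1-like droplet held 11 Acp5 UMIs in WT and 5 in the mutant. Its level was thus highest in M1-like cells among the named subsets of each library, and the WT value exceeded the mutant value in all 5 subclusters.

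Dcstamp (ENSMUSG00000022303, chr15:39745930-39760938, plus strand), the membrane protein required for fusion of osteoclasts and giant cells, was concentrated in M1-like cells among the named subsets. It reached 564 CPM (548 to 580) in WT against 446 CPM (430 to 462) in mutant M1-like cells, a log2 ratio of -0.34 (-0.41 to -0.27). Over all macrophages it was 409 and 269 CPM (-0.61). M2-like cells had little, with 16 WT and 3 mutant UMIs (14.7 and 1.35 CPM; log2 ratio -3.45, -5.87 to -1.64). The monocyte-like subset went the other way at 55.4 and 99.8 CPM (0.85), but 1 mutant droplet held 44.4% of the UMIs, and without the richest droplet of each library the levels were 44.6 and 56.0 CPM. Dcstamp thus separated M1-like from M2-like macrophages more sharply than Acp5 did, and the Ngp-led unnamed subcluster was as high (563 and 468 CPM) as the M1-like one.

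Ctsk in macrophages differed by less than counting error, with 66.7 and 66.3 CPM (log2 -0.01, -0.14 to 0.13), and within M1-like cells it was 88.5 CPM in WT against 108 CPM in the mutant (0.28, 0.13 to 0.43). The highest droplets held 138 and 109 of its UMIs while the median M1-like droplet held 1, so a few droplets carried much of the signal. In monocyte-like cells it was 15.4 and 39.0 CPM, or 12.9 and 30.8 CPM without the richest droplet of each library. Between the libraries Ctsk therefore did not follow Acp5 and Atp6v0d2 in macrophages.

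Ocstamp (ENSMUSG00000027670, chr2:165393760-165400405, minus strand), the partner of Dcstamp in fusion, was near the detection limit. The WT library held 18 Ocstamp UMIs in 13 droplets and the mutant 21 UMIs in 16 droplets. In WT, 10 of the 13 droplets were M1-like macrophages, and each of these 10 also held at least 2 other effectors. Most WT M1-like droplets held at least 3 effectors, as given below, so this is common among such deep droplets. In the mutant, 1 of the 16 was M1-like and 5 were in the separate monocyte cluster. Macrophages held 11 WT and 3 mutant UMIs (log2 -1.99, -4.47 to -0.07) and M1-like cells 11 and 1 (-3.03, -8.46 to -0.25), while the monocyte cluster held 4 and 9 (0.99, -0.85 to 3.15). Over all kept cells the levels were 0.372 and 0.386 CPM (0.05, -0.92 to 1.05). The macrophage intervals left out 0, but they are wide and the counts few.

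**Figure D2:**
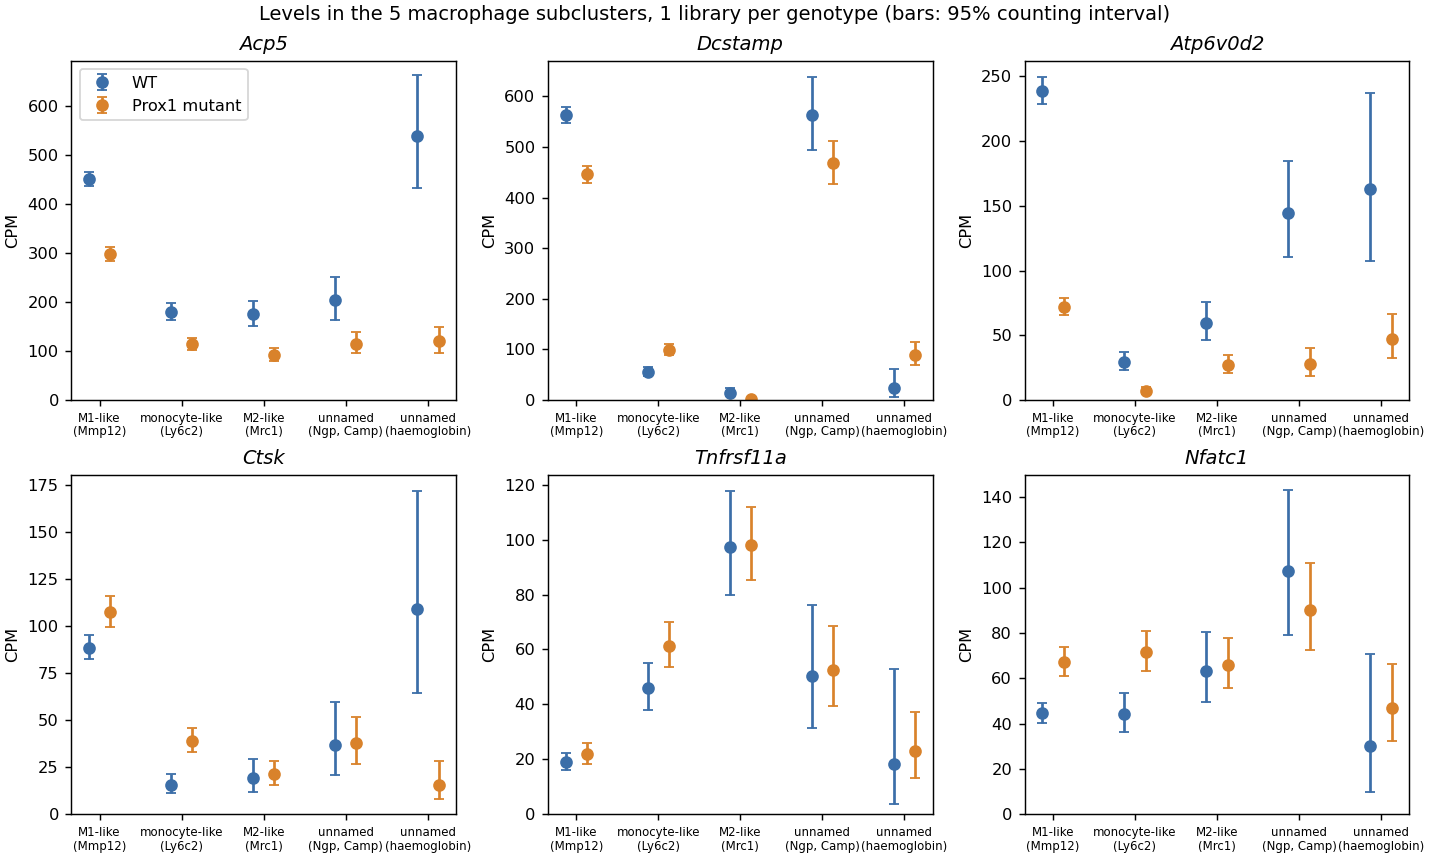
Level in CPM (vertical axes, starting at 0) of Acp5, Dcstamp, Atp6v0d2, Ctsk, Tnfrsf11a and Nfatc1 in the 5 macrophage subclusters (horizontal axes) of the WT (blue) and Prox1 mutant (orange) library; bars are 95% counting intervals. Atp6v0d2 and Acp5 sit lower in the mutant in all 5 subclusters, Dcstamp is high in the M1-like and the Ngp-led subclusters, and Tnfrsf11a peaks in M2-like cells at 97.4 and 97.9 CPM.

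Set against all genes, the macrophage gaps stood as follows. At least 2-fold differences either way were seen for 358 of 8346 genes in macrophages, 4.29%, and 2-fold lower levels in the mutant for 85, 1.02%. Of the 6 members with at least 200 UMIs, Atp6v0d2 alone passed 2-fold. In M1-like cells 215 of 6574 genes passed either way, 3.27%, and 51 were lower, 0.776%. There too Atp6v0d2 alone of 6 members passed. The median gene was higher in the mutant by 0.19 on the log2 scale in macrophages and 0.17 in M1-like cells, so relative to the median gene the differences of Atp6v0d2, Acp5 and Dcstamp were larger than printed and those of Tnfrsf11a and Nfatc1 smaller. Genes of other cells also differed between the libraries. The summed level of 7 erythroid markers in M1-like cells was 104 CPM in WT against 1479 CPM in the mutant, and that of 10 neutrophil markers was 1079 and 2438 CPM. The 9 macrophage markers stood at 2548 and 2543 CPM. The part of these sums in the member differences was not tested.

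**Figure D3:**
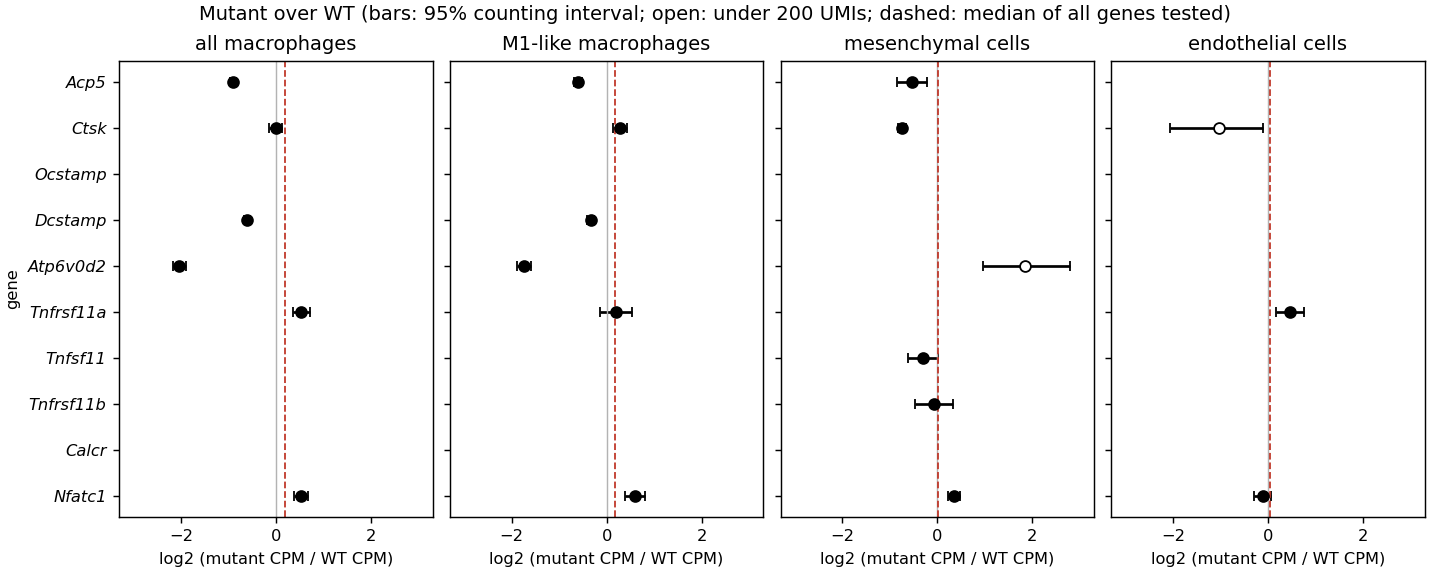
Log2 of mutant over WT CPM (horizontal axes) for the 10 genes (vertical axis) in 4 cell populations; bars are 95% counting intervals, open points have under 200 UMIs, genes under 50 UMIs are not drawn, and the dashed line is the median of all genes tested. Atp6v0d2 lies at -2.03 in macrophages and -1.73 in M1-like cells, and Ctsk at -0.74 in mesenchymal cells.

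The effectors were also counted droplet by droplet, since a mature osteoclast would carry them together. Among WT macrophages 194 of 578 droplets, 33.6% (95% exact interval 29.7 to 37.6), held UMIs of at least 3 of the 5 effectors, against 123 of 772, 15.9% (13.4 to 18.7), in the mutant. With each droplet thinned to 2000 UMIs, which left 553 WT and 682 mutant macrophages deep enough, the shares were 4.16% (2.65 to 6.18) and 1.32% (0.605 to 2.49). In M1-like cells the shares were 64.3% and 51.3% as deposited and 8.95% and 4.21% thinned, with intervals that overlapped after thinning (5.76 to 13.1 and 1.84 to 8.13). At least 4 effectors were found in 104 WT droplets, 100 of them macrophages, and in 41 mutant droplets, 38 of them macrophages. All 5 were found in 6 WT and 0 mutant macrophages, and for 0 of 772 the exact upper bound is 0.477%.

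**Figure D4:**
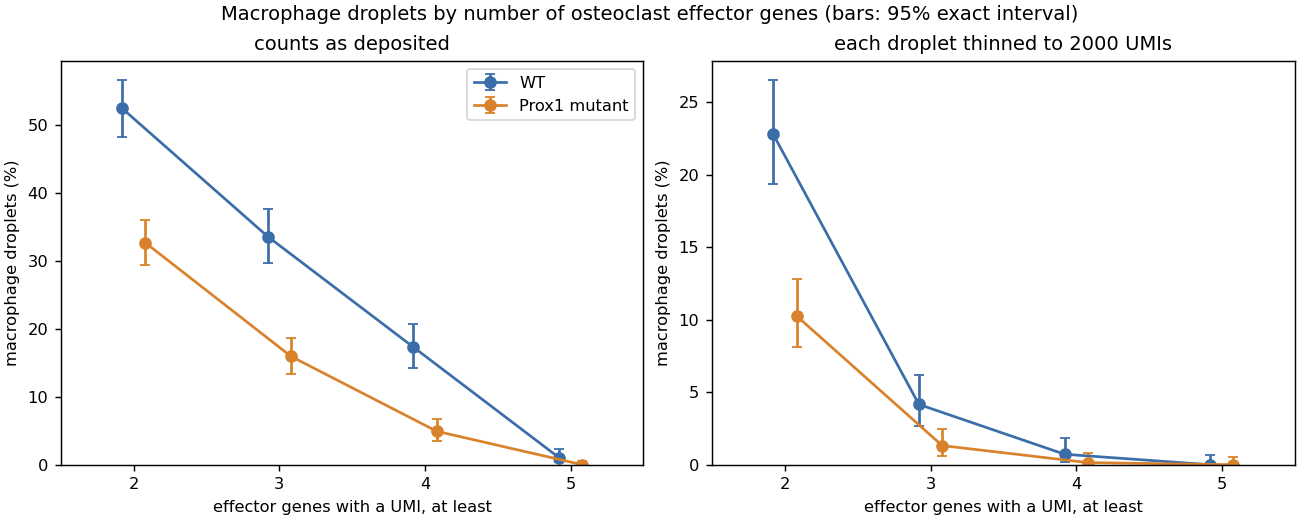
Percentage of macrophage droplets (vertical axes) with a UMI of at least 2, 3, 4 or 5 effector genes (horizontal axes) in the WT (blue) and Prox1 mutant (orange) library, from counts as deposited (left) and with each droplet thinned to 2000 UMIs (right); bars are 95% exact intervals. WT lies above mutant at 2 and 3 genes in both panels, and at 3 genes the values are 33.6% and 15.9% on the left and 4.16% and 1.32% on the right.

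Pairs of effectors in M1-like droplets thinned to 10000 UMIs showed which were detected together. Atp6v0d2 was found in 57.1% of 217 WT droplets with Acp5 and in 19.2% of 26 without it, and in the mutant in 30.8% of 133 and 8.70% of 46. Ctsk was found in 37.3% of WT droplets with Acp5 and 26.9% without, and in 45.1% and 15.2% of the mutant ones. Dcstamp was found in 77.0% of WT droplets with Acp5 and 61.5% without, and in 63.9% and 54.35% of the mutant ones. Atp6v0d2 was found in 55.7% of WT droplets with Dcstamp and 45.0% without, and in 20.9% and 31.9% of the mutant ones. In each pair with Acp5 the difference had the same sign in each library, and for Atp6v0d2 with Dcstamp it did not.

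No macrophage subcluster could be named osteoclast, and this name was not tried for the clusters of all cells. The study digested the tissue with enzymes and passed it through a mesh, and the recovery of multinucleated cells was not tested. These droplets therefore do not count the osteoclasts of the joint. By protein staining of sections, the study reported more Cathepsin K-positive osteoclasts in mutant bone marrow. Of 9 osteoclast markers outside the member list, Siglec15 had 0 UMIs in macrophages of either library, which allows up to 0.235 CPM in WT against 0.216 CPM in the mutant. Oscar, an osteoclast co-receptor, had 1 and 0 UMIs, and Rufy4 3 and 3. Over all kept cells Siglec15 had 4 and 3 UMIs, Oscar 5 and 8, and Rufy4 47 and 172, so most Rufy4 UMIs lay outside macrophages. The integrin subunit Itgb3 stood at 1.49 and 2.67 CPM. The remaining 5 serve lysosomes and signalling in macrophages in general and were well detected, for example Snx10 at 208 and 256 CPM and the proton pump subunit Tcirg1 at 116 and 112 CPM.

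Ctsk was highest outside the macrophage lineage. Mesenchymal cells, named from Dcn, Col3a1 and related matrix genes, held 69.7% of WT and 54.0% of mutant Ctsk UMIs. Their level was 362 CPM (349 to 376; 557 cells) in WT against 217 CPM (206 to 228; 548 cells) in the mutant (log2 -0.74, -0.83 to -0.65). After thinning to 2000 UMIs, 41.5% (37.3 to 45.8) of WT and 22.8% (19.1 to 26.8) of mutant mesenchymal cells held a Ctsk UMI. The gap was present in the cluster led by Clec3b, Prg4 and Pi16 (369 and 220 CPM) and in the cluster led by Tnn, Fmod and Postn (334 and 258 CPM). The difference did not reach 2-fold, which 246 of 8389 genes did in mesenchymal cells, 2.93%, and 0 of the 5 members tested did. Erythroid markers summed to 1038 CPM in WT against 9015 CPM in mutant mesenchymal cells, and the mesenchymal markers to 28152 and 21197 CPM, and their part in the Ctsk difference was not tested. Osteoblasts and osteocytes followed at 90.3 and 82.6 CPM and chondrocytes at 80.5 and 88.7 CPM, neighbours in this order whose intervals overlapped, as they did between the libraries.

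Outside macrophages Acp5 was also found in the erythroid lineage. It stood at 68.6 CPM (60.0 to 78.2) in WT against 67.4 CPM (61.3 to 73.9) in mutant erythroid cells. A cluster of proliferating erythroid cells led by Hemgn and histone genes reached 124 and 118 CPM. Adipocytes had 129 CPM (75.1 to 206; 17 UMIs in 6 cells) in WT against 93.6 CPM (72.5 to 119; 67 UMIs in 115 cells) in the mutant (log2 -0.46, -1.25 to 0.40). T cells showed 89.7 and 32.4 CPM, but in WT 1 droplet held 52.8% of their Acp5 UMIs. T cells of the mutant likewise had 90 Dcstamp UMIs in 5 of 88 droplets and WT T cells 0, values that rest on few droplets.

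RANK (Tnfrsf11a, ENSMUSG00000026321, chr1:105780718-105847981, plus strand), the receptor through which precursors sense RANKL, was lowest among the named macrophage subsets where Acp5, Dcstamp, Atp6v0d2 and Ctsk were highest. In WT it stood in M1-like cells at 19.0 CPM (16.2 to 22.2), in monocyte-like cells at 45.9 CPM (37.9 to 55.0), and in M2-like cells at 97.4 CPM (79.7 to 118). In the mutant the same order held with 21.8, 61.4 and 97.9 CPM, and neighbours did not overlap in either library. Over all macrophages it was 32.1 CPM in WT against 46.5 CPM in the mutant (log2 0.54, 0.36 to 0.72). Within subsets the ratio was 0.20 (-0.14 to 0.53) in M1-like, 0.42 (0.09 to 0.76) in monocyte-like and 0.01 (-0.33 to 0.36) in M2-like cells, and the M1-like share of macrophages was lower in the mutant, as given above. Of the unnamed subclusters, the Ngp-led one, as high in Dcstamp as M1-like cells, held RANK at 50.3 and 52.5 CPM. The haemoglobin-led one held 18.1 and 22.8 CPM (3 and 16 UMIs). In M1-like droplets, thinned as for the effector pairs above, RANK was found in 22.95% of WT droplets with Dcstamp and 5% without. In the mutant these shares were 16.36% and 17.39%. RANK and Dcstamp were thus not inversely related throughout.

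Of the named types, endothelial cells held the most RANK UMIs after macrophages. They stood at 28.7 CPM (24.9 to 32.9) in WT against 39.9 CPM (34.3 to 46.0) in the mutant (log2 0.47, 0.18 to 0.77). At least 2-fold differences were seen there for 137 of 7180 genes, 1.91%, and 0 of the 2 members tested passed. The cluster led by Ubd, Selp and Plvap, genes typical of venules, held 52.0 and 72.6 CPM. The cluster led by Sema3g and Gja5, typical of arteries, held 22.6 and 28.7 CPM, and the capillary-type cluster led by Timp4, Car4 and Gpihbp1 held 8.23 and 13.3 CPM. The same order was thus seen in each library.

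RANKL (Tnfsf11, ENSMUSG00000022015, chr14:78277445-78308043, minus strand) was scarce, with 407 UMIs in 122 WT and 461 in 126 mutant droplets. T cells had 102 CPM (73.3 to 139) in WT against 87.8 CPM (67.7 to 112) in the mutant, from 9 of 47 and 11 of 88 cells. The top droplet gave 26.8% and 58.5% of these UMIs, and without it the levels were 75.5 and 39.1 CPM. Mesenchymal cells gave the most UMIs, 209 and 138, at 25.4 and 20.6 CPM (log2 -0.30, -0.63 to 0.01). Within them the cluster led by Tnn, Fmod and Postn had 66.0 and 79.0 CPM, while the larger cluster led by Clec3b, Prg4 and Pi16 had 8.63 and 3.07 CPM. Of these mesenchymal clusters, the Tnn one thus had the higher RANKL level in each library. The level without the richest droplet was not computed for them. Chondrocytes had 23.6 and 20.9 CPM (22 and 12 UMIs).

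Bone-forming cells showed a RANKL gap that rested on few cells. Osteoblasts and osteocytes had 15.8 CPM (10.4 to 23.0; 27 UMIs) in WT against 74.3 CPM (58.2 to 93.6; 72 UMIs) in the mutant. In the mutant only 6 of 50 cells held a UMI, and 1 of them held 41.7% of the UMIs. B cells had 25.7 and 79.8 CPM, but 1 droplet held 70.0% and 84.7% of the UMIs, leaving 7.78 and 12.5 CPM without it. Adipocytes went the other way at 167 CPM in WT against 4.19 CPM in the mutant (log2 -5.32, -7.70 to -3.58), from 22 UMIs in 6 cells and 3 UMIs in 115 cells, and 1 WT cell held 63.6% of the UMIs. Dendritic cells stood at 79.3 and 4.59 CPM (-4.11, -9.53 to -1.35), but all 12 WT UMIs came from 1 cell and the mutant had 1 UMI. Endothelial cells had 4 and 28 UMIs (0.560 and 6.03 CPM; log2 3.43, 1.92 to 5.40), and 1 mutant droplet held 96.4% of the latter. Each of these gaps thus rested on 1 droplet or a few cells. Macrophages stood at 1.72 and 1.15 CPM.

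Osteoprotegerin (Tnfrsf11b, ENSMUSG00000063727, chr15:54250619-54278484, minus strand) was found mainly in stromal types, with 214 UMIs in WT and 157 in the mutant. Mesenchymal cells had 14.5 CPM (12.0 to 17.3) and 13.9 CPM (11.2 to 17.0), a log2 ratio of -0.06 (-0.47 to 0.34). Over both libraries the level was 14.2 CPM, and between 5.52 and 6.76 CPM under 6 of the 7 other ways of filtering and clustering the cells. Chondrocytes had 39.7 and 27.8 CPM, from 29 WT and 103 mutant cells. Pericytes had 34.0 and 17.6 CPM, and osteoblasts and osteocytes 14.7 and 16.5 CPM. The intervals overlapped between the libraries in each of these types. The Tnn, Fmod and Postn cluster held 38.6 and 32.5 CPM against 4.31 and 7.90 CPM in the Clec3b, Prg4 and Pi16 cluster, so the ligand and its decoy peaked in the same mesenchymal cluster. Macrophages held 0 and 2 UMIs. Endothelial cells had 9 and 17 UMIs, of which 1 mutant droplet gave 58.8%.

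**Figure D5:**
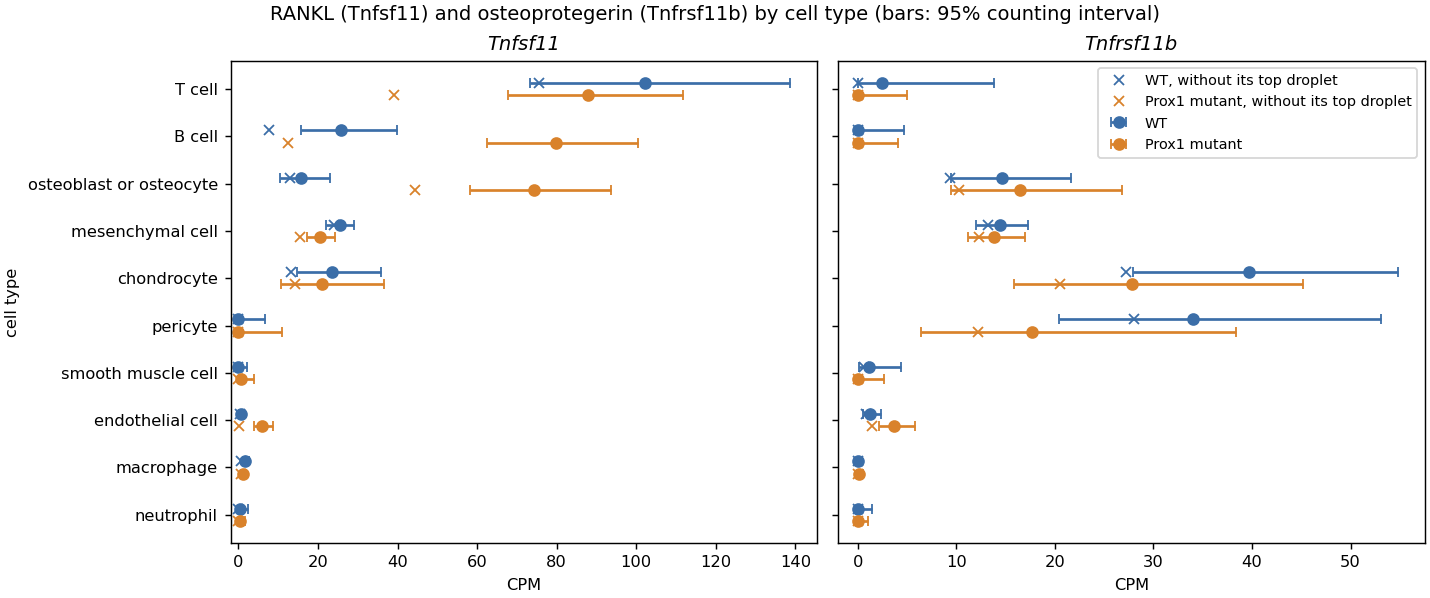
Level in CPM (horizontal axes) of Tnfsf11 (left) and Tnfrsf11b (right) in 10 cell types (vertical axis) of the WT (blue) and Prox1 mutant (orange) library; bars are 95% counting intervals and crosses give the level without the single droplet richest in the gene. B cell RANKL drops from 79.8 to 12.5 CPM in the mutant when that droplet is left out, and macrophages lie at or near 0 for Tnfrsf11b.

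The calcitonin receptor (Calcr, ENSMUSG00000023964, chr6:3685680-3764714, minus strand), which restrains mature osteoclasts and also marks quiescent muscle stem cells, was found almost wholly in muscle satellite cells. They held 94.8% of WT and 87.6% of mutant Calcr UMIs. The level was 339 CPM (296 to 387; 88 cells) in WT against 339 CPM (271 to 419; 35 cells) in the mutant (log2 0.00, -0.38 to 0.37). Macrophages held 2 and 1 UMIs. The only strong Calcr signal in the joint therefore came from muscle.

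Nfatc1 (ENSMUSG00000033016), the master transcription factor of osteoclast formation with further roles in T cells, endothelium and heart valves, was spread over most cell types. It was found at 48.0 and 68.8 CPM in WT and mutant macrophages (log2 0.52, 0.37 to 0.67), 104 and 96.1 CPM in endothelial cells (-0.11, -0.28 to 0.06), and 117 and 149 CPM in mesenchymal cells (0.35, 0.22 to 0.48). T cells had 127 and 189 CPM (0.57, 0.10 to 1.07). Dendritic cells had 165 and 252 CPM (0.61, -0.10 to 1.355), from 25 and 55 UMIs. B cells stood at 64.3 and 147 CPM (1.20, 0.72 to 1.69). Neutrophils had 38.3 and 64.3 CPM (0.75, 0.39 to 1.11), and granulocyte-monocyte progenitors 23.8 and 45.1 CPM (0.92, 0.38 to 1.48). Chondrocytes, the highest type in WT, went the other way at 215 and 117 CPM (-0.88, -1.30 to -0.48), as did muscle satellite cells at 70.3 and 27.9 CPM (-1.33, -2.73 to -0.17; 45 and 7 UMIs). The chondrocytes were 29 WT and 103 mutant cells with 1.93% and 1.06% of all UMIs, so the WT ones were fewer and deeper. Erythroid cells were lowest at 4.23 and 3.45 CPM. In M1-like macrophages Nfatc1 was 44.5 and 67.3 CPM, below the endothelial level of each library and higher in the mutant, unlike Atp6v0d2 and Acp5. Monocyte-like cells had 44.3 and 71.5 CPM (0.69, 0.36 to 1.02). In M2-like cells Nfatc1 was 63.4 and 66.0 CPM (0.06, -0.36 to 0.49). The Ngp-led subcluster stood at 108 and 90.2 CPM (-0.25, -0.78 to 0.29) and the haemoglobin-led one at 30.2 and 47.1 CPM (0.64, -0.73 to 2.35). Atp6v0d2 and Acp5 were lower in the mutant in every subcluster, so the opposite direction was not general.

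The genes most alike to each member were ranked by Pearson's r of log2(CPM + 5) over 22 points (11 cell types in 2 libraries) among 13696 genes. The points share 2 libraries and their depths, and the values are a description. Dcstamp was closest to Itgax (r = 0.955), the integrin CD11c, then to Dpep2 (0.934) and Ms4a7 (0.930). Atp6v0d2 was closest to H2-M2 (0.934), Stra6l (0.929) and Clec1b (0.924), and Acp5 to AI427809 (0.820), Slx4ip (0.806) and Myo3b (0.799). Ctsk was closest to the matrix protease Mmp2 (0.943) and also close to C1ra (0.935). Tnfrsf11a was closest to Tgm2 (0.908), Batf2 (0.891) and Prdm1 (0.872), and Nfatc1 to Pdcl (0.901), Tgfbr2 (0.878) and Jmjd1c (0.876). Tnfrsf11b was closest to Kcnt2 (0.978), Gxylt2 (0.976) and Scara3 (0.976), and Tnfsf11 to Agr2, Bcat1 and Hmgcll1 (0.834, 0.834 and 0.833). No likeness is given for Calcr, since the satellite cells that held most of its UMIs were too few to be among the points.

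Other genes of osteoclast resorption were read from 17 genes outside the member list, of which 15 could be tested in macrophages. Car2, the carbonic anhydrase that supplies protons, was higher in the mutant past 2-fold at 5.40 and 30.7 CPM (log2 2.51), and it is also one of the erythroid markers whose sum differed above. Mmp9, a gelatinase, was lower past 2-fold at 145 and 55.5 CPM (-1.39), and in M1-like cells at 204 and 95.3 CPM (-1.10). These 2 of 15 compare with 4.29% of all genes past 2-fold either way, and the 1 that was lower with 1.02%. The other 13 stayed within 2-fold, among them Atp6v0a1 (0.86), Plekhm1 (0.43) and Mmp14 (0.30). The list's median log2 ratio was 0.07 beside 0.19 for all genes tested.

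Of 14 further cell fusion genes 11 were tested in macrophages, with a median of -0.38. The tetraspanin Cd81 was past 2-fold higher in the mutant at 23.9 and 51.0 CPM (1.10). The rest stayed within 2-fold, with Cd200 at 57.7 and 32.8 CPM (-0.82), Adam8 at 248 and 153 CPM (-0.69), Cd44 at 1266 and 1972 CPM (0.64) and the tetraspanin Cd9 at 1000.1 and 668 CPM (-0.58). In M1-like cells none of the 11 passed 2-fold and the median was -0.36. The counts of 1 and 0 of 11 are near the shares of all genes, 4.29% and 3.27%.

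RANK signal transducers and osteoclast transcription factors numbered 27, of which 26 were tested and 0 passed 2-fold, near the share of all genes (4.29%), with a median of 0.36. The largest differences were all towards the mutant. They were the NF-kappaB inducing kinase Map3k14 (17.8 and 35.6 CPM, 0.995), the adaptor Blnk (55.9 and 96.9 CPM, 0.79), the transcription factor Mitf (563 and 929 CPM, 0.72), the kinase Btk (29.7 and 47.2 CPM, 0.67) and the NF-kappaB subunit Rela (45.7 and 70.0 CPM, 0.62). Among 14 inhibitors of osteoclast formation, all tested, 0 passed 2-fold and the median was 0.23. Traf3, a brake on RANK signalling, stood at 191 and 320 CPM (0.74), Il10ra at 71.7 and 112 CPM (0.64), the transcription factor Irf8 at 197 and 275 CPM (0.48), Ifngr1 at 107 and 141 CPM (0.40) and Cd200r1 at 51.0 and 39.2 CPM (-0.38). The medians of these last lists thus lay above that of all genes tested (0.19), and that of the fusion list lay below it.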

How the data were processed

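The authors deposited filtered matrices of raw counts (UMIs per gene and droplet) for 2 libraries, made, per the labels, with Cell Ranger 7.0.1 against mm10. From these, the barcodes entering the clustering had 500 genes or more and fewer than 10% of UMIs from mitochondrial genes. Cells were clustered with Seurat 5.3.0 in R 4.3.3 (SCTransform 0.4.2, anchors on 3000 features without the 10 genes, 200 components, resolution 1.5), and macrophages again with 30 components at resolution 0.5. A cluster could be named where at least 3 of its type's markers were raised 2-fold, on (CPM + 5), and found in 10% of cells. The haemoglobin genes counted as 1 marker, a choice made after seeing the data. A cluster meeting this stayed unnamed if its leading genes or raised markers pointed to another lineage. It also stayed unnamed if it was shallow with no marker of its lineage among its leading genes. For example, a shallow cluster with 7 raised endothelial markers stayed unnamed. Levels are summed UMIs per 1000000 (CPM) with exact Poisson intervals, shares have Clopper-Pearson intervals, and log2 ratios have exact conditional binomial intervals, all at 95%; a floor of 3 counts limits a count of 0. A gene was called at 2-fold where it had at least 200 UMIs over both libraries. With 1 library per group no test across samples exists. Scripts were tested on simulated data. Scrublet's automatic threshold marked 0 doublets, so doublets were kept in the values given; leaving out 239 WT and 462 mutant barcodes with the highest scores was an alternative. Thinning drew UMIs without replacement (2000, 4000 or 10000 per droplet).

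The 10 genes and the lists were chosen with earlier results of these data known. All 10 genes were named; from each list up to 5 genes with the largest log2 ratio in macrophages and at least 200 UMIs were named, and for each member with at least 100 UMIs the 3 most alike genes (not given for Calcr) over types of at least 50 cells in each library; 1 such gene is not reported here. Alternatives covered cell filters, integration, components, resolution, the features used, doublets, a cluster-free gate of 3 C1q UMIs, scaling, thinning and the UMI minimum. PCR duplicates are collapsed by UMIs, and intervals leave out variation between animals, whose number per library is not given in the sources used here.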

Additional observations from a re-analysis of the deposited data

Results flagged for a closer look

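Ctsk differed in opposite directions between populations. It was higher in the mutant in monocyte-like macrophages (log2 ratio 1.34, 0.82 to 1.89; 15.4 and 39.0 CPM) and lower in mesenchymal cells (-0.74, -0.83 to -0.65). Dcstamp was higher in the mutant in monocyte-like macrophages (0.85, 0.56 to 1.14) and lower in M1-like macrophages (-0.34, -0.41 to -0.27). In the monocyte-like subset 1 mutant droplet held 44.4% of the Dcstamp UMIs, and without the richest droplet of each library the levels were 44.6 and 56.0 CPM. Neither contrast was tested, since each genotype had 1 library.

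A few barcodes outside the cell filter also held UMIs of several effectors. At least 3 effectors were found in 16 of 1357 such WT barcodes, with a median depth of 12902 UMIs and 16.8% mitochondrial UMIs, and in 1 of 2089 mutant barcodes, with 2624 UMIs and 91.9% mitochondrial UMIs.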

How the results depend on the processing

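No called result changed direction under the alternatives run; the Ctsk ratio in macrophages, -0.01, ranged from -0.24 to 0.28. No paired analysis was possible because each genotype had 1 library, and no library could be left out. The Acp5 ratio in macrophages was -0.91 and moved to -1.15 with the C1q gate, -1.21 as UMIs per cell and -0.60 in M1-like cells alone. Atp6v0d2 ranged from -2.33 to -1.73. The Ctsk ratio in mesenchymal cells was -0.74 and moved to -0.86 with the loose and -0.88 with the strict cell filter, and to -1.01 as UMIs per cell. The Tnfrsf11a ratio in macrophages was 0.54 and moved to 0.26 with the gate, 0.24 per cell and 0.20 in M1-like cells. The difference in the share of macrophages with 3 or more effectors was -17.6 percentage points, -2.84 after thinning to 2000 UMIs and -8.69 after thinning to 4000. Genes past 2-fold in macrophages numbered 358, 927 with a minimum of 50 UMIs and 215 in M1-like cells. Tnfsf11 in T cells (92.8 CPM over both libraries) moved to 115 with the strict filter and 120 with 30 components. Tnfrsf11b in mesenchymal cells (14.2 CPM) moved to 5.94 with either filter, 5.52 without integration, 6.76 with 30 components, 5.99 at resolution 0.5 and 6.04 without doublets; the cause was not tested. The M1-like and subcluster alternatives were chosen after seeing the data. Depth limits Ocstamp, Tnfsf11, Tnfrsf11b and every value resting on under 100 UMIs.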

Other observations

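Among cells left unnamed, Acp5 stood at 114 CPM in WT against 65.4 CPM in the mutant, and Atp6v0d2 at 54.8 and 5.02 CPM. The clusters pooled here differed in make-up between the libraries, so these values compare unlike mixtures of cells. For example, the unnamed cluster led by Igkc and haemoglobin genes held 8 WT and 624 mutant cells. A cluster led by Car1 and C1qtnf12, which stayed unnamed, held Acp5 at 217 CPM in 22 WT cells and 114 CPM in 141 mutant cells. The macrophage cluster led by Malt1 and Pid1 had Dcstamp at 639 and 515 CPM and Atp6v0d2 at 172 CPM (57 UMIs) in WT against 3.59 CPM (2 UMIs) in the mutant.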
